A study of Mus musculus with 6 samples.

Results

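The proximal V region is the stretch of the mouse immunoglobulin heavy chain (Igh) locus that holds the variable gene segments nearest to the D segments, and the middle V region lies next to it on the far side from the D segments. Contacts were counted by 5C (chromosome conformation capture carbon copy), in which a forward primer on one HindIII restriction fragment and a reverse primer on another are ligated and sequenced if the fragments had been joined in a crosslinked nucleus. The contacts described here were chosen by position alone: 1 fragment midpoint had to lie in the proximal V region and the other in the proximal or middle V region. This rule took 574 of the 12656 possible Igh primer pairs. Of these, 90 join 2 of the 19 proximal V fragments (chr12:114809751-115096374, mm9), and 484 join a proximal V fragment to one of 51 middle V fragments (chr12:115139357-115709849, mm9). A pair can be read only between a forward and a reverse primer, so many combinations of fragments have no value.

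The libraries came from 3 mouse cell types with 2 libraries each, which the series text describes as biological replicates. CD43- resting B cells were taken directly from the spleen with MACS beads. Pro-B cells came from bone marrow of Rag2 deficient mice and had been grown with IL7 for 4 days. Mouse embryonic fibroblasts (MEF) were taken from culture. Rag2 is needed to cut the DNA in V(D)J recombination, so pro-B alleles were unrearranged, while resting B cells carry joined V, D and J segments on at least one allele. Cell type, culture history and, for pro-B cells, Rag2 deficiency went together and cannot be told apart. Strain, age and sex are not given in the sources used here, and neither are any pooling of animals and the purity of the cells; 5C holds no marker genes by which the labels could be checked.

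V(D)J recombination joins 1 V, 1 D and 1 J segment and deletes the DNA between the V and the D segment that are joined. In pro-B cells the locus is known to contract, so that V segments far away along the chromosome come close to the D and J segments. The proximal V segments lie so near that they need little of this contraction, and they are known to be used early in ontogeny. In the RefSeq gene order of the mouse (GRCm38), 19 of the 30 annotated Ighv genes nearest to the D segments belong to Ighv5 (the VH7183 family) and 10 to Ighv2 (the VHQ52 family). The next 30 genes are mixed, with Ighv3 the most frequent family at 6 genes. No gene was placed on a single 5C fragment, because the fragments are in mm9 coordinates and no mm9 annotation was used.

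Library depth was 20580457 to 24191175 valid read pairs, of which 91.3% to 93.4% joined 2 Igh fragments. Replicates agreed least in pro-B cells: across the 532 tested pairs, which are not independent of each other, the Pearson correlation between log2 counts of both libraries was 0.96 for resting B cells, 0.84 for pro-B cells and 0.97 for MEF. The number of the 574 pairs without a read was 40 and 45 in resting B libraries, 9 and 72 in pro-B libraries and 11 and 11 in MEF libraries. A pair at 0 could hold up to 3 reads of the library at this depth. The 2 pro-B libraries thus lie apart from each other. Sums over regions and counts of called pairs are also given with single libraries left out. Values of named pairs and fragments are given only with both pro-B libraries.

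Contacts of the proximal V region with itself and with the middle V region were scarcer in resting B cells than in both other cell types. The 574 pairs held 3.20% and 2.96% of the Igh reads in resting B libraries, 6.92% and 5.53% in pro-B libraries, and 5.17% and 5.58% in MEF libraries. The mean was 3.08% ± 0.171 in resting B cells, 6.22% ± 0.977 in pro-B cells and 5.37% ± 0.289 in MEF (SD, n = 2 each). Every resting B library lay below all 4 other libraries, and the pro-B and MEF libraries overlapped. A share has a fixed total, so a lower share here goes with a higher share elsewhere in the locus.

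The reads were not spread evenly over the pairs. Contacts within the proximal V region made up 78.3% and 76.6% of these reads in resting B libraries, 88.1% and 76.7% in pro-B libraries, and 85.2% and 79.7% in MEF libraries. Their median separation was 99.4 kb, against 565 kb for the pairs that reach into the middle V region. A single fragment, FOR 126 (chr12:114823610-114829182, mm9), held 47.7% and 51.5% of the proximal with middle V reads in resting B libraries, 36.2% and 55.5% in pro-B libraries, and 46.1% and 38.9% in MEF libraries. The same fragment had the most reads with the unlinked gene desert on chromosome 5 of all 19 proximal fragments in each of the 6 libraries. Those desert reads numbered 25754 and 28939 in resting B libraries, 5310 and 38221 in pro-B libraries, and 12475 and 11451 in MEF libraries. A large count of FOR 126 thus goes with a fragment that was read often with unlinked DNA too.

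Summed over the 90 pairs within the proximal V region, resting B libraries had 20004 and 19855 CPM (counts per 1000000 reads of the TMM-scaled library). Pro-B libraries had 71606 and 37502 CPM, and MEF libraries 56874 and 34351 CPM. Both resting B libraries lay below all others, whereas the 2 pro-B libraries differed from each other by more than their distance to MEF. The sum fell in resting B cells relative to MEF, with a log2 fold of -1.19 ± 0.41 (SE, adjusted p = 0.0403). Relative to pro-B cells it fell as well, with -1.45 ± 0.42 (adjusted p = 0.0275). Of the 55 sums over pairs of Igh regions, resting B cells were called lower than MEF in 16.4% and higher in 32.7%, and lower than pro-B cells in 21.8% and higher in 20%. Pro-B cells over MEF gave 0.26 ± 0.41 (adjusted p = 0.769), where 9.09% of region sums were called higher and 0% lower. These and all later adjusted p-values are from edgeR's quasi-likelihood test on the 6 libraries, with Benjamini-Hochberg adjustment.

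For the 484 pairs of proximal with middle V, the sum was 5537 and 6076 CPM in resting B libraries, 9670 and 11387 CPM in pro-B libraries, and 9886 and 8755 CPM in MEF libraries. Resting B cells again lay below all other libraries, and pro-B and MEF libraries overlapped. The log2 fold was -0.68 ± 0.23 for resting B cells over MEF (adjusted p = 0.0403) and -0.86 ± 0.24 for resting B over pro-B cells (adjusted p = 0.0271). It was 0.18 ± 0.23 for pro-B cells over MEF (adjusted p = 0.769). Without FOR 126 the sums of resting B cells gave -0.87 over MEF (adjusted p = 0.00822) and -0.94 over pro-B cells (adjusted p = 0.0106).

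The resting B calls depended on how the libraries were put on a common scale and, within the proximal V region, on the pairs of neighbouring fragments described further on. With the gene desert reads as library size, resting B over MEF gave -0.63 within the proximal V region (adjusted p = 0.193) and -0.20 for proximal with middle V (adjusted p = 0.833). When each library's trend of counts over separation was taken out, the sum within the proximal V region was -0.68 over MEF (adjusted p = 0.0985) and -0.90 over pro-B cells (adjusted p = 0.0509).

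The calls on the sums also depended on single libraries. Over MEF, the sum within the proximal V region was -0.79 without MEF replicate 1 (adjusted p = 0.208), -1.51 without MEF replicate 2 (0.0579), -1.20 without resting B replicate 1 (0.201) and -1.18 without resting B replicate 2 (0.230). Over pro-B cells it was -0.93 without pro-B replicate 1 (adjusted p = 0.0566), -1.46 without resting B replicate 1 (0.142) and -1.44 without resting B replicate 2 (0.151). For proximal with middle V, the fold over MEF was -0.60 without MEF replicate 1 (adjusted p = 0.204), -0.77 without MEF replicate 2 (0.148), -0.62 without resting B replicate 1 (0.289) and -0.74 without resting B replicate 2 (0.255). Over pro-B cells it was -0.80 without MEF replicate 2 (adjusted p = 0.0957), -0.79 without resting B replicate 1 (0.219) and -0.92 without resting B replicate 2 (0.153). Direction stayed below 0 each time, and a group with a single library was assumed to vary like the others. Without pro-B replicate 1 or MEF replicate 2, the sum within the proximal V region for pro-B cells over MEF turned to -0.28 and -0.15.

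**Figure D1:**
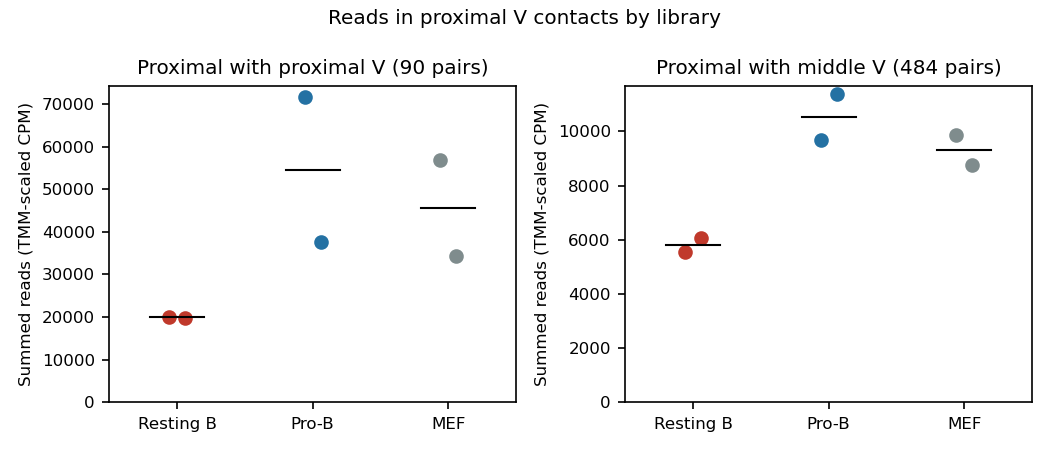
Summed reads of the 90 pairs within the proximal V region (left) and of the 484 pairs of proximal with middle V (right), in CPM of the TMM-scaled library. Each point is a library and each bar the mean of 2 libraries; the resting B libraries, at 20004 and 19855 CPM on the left and 5537 and 6076 CPM on the right, lie below the 4 others.

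Pair by pair, most of the contacts had fewer reads in resting B cells than in MEF. Of the 574 pairs, 532 had at least 10 reads in at least 2 libraries and were tested, and 42 were not. The log2 fold was below 0 in 478 of the 532, and the median was -1.29, against -0.02 over all 11940 tested Igh pairs. In 391 pairs, or 73.5%, both resting B libraries lay below both MEF libraries, where the share over all tested Igh pairs was 35.9%. The opposite held in 18 pairs (3.38%), against 33.9% of all tested Igh pairs. Only 5 pairs were called lower and 0 higher, or 0.940% lower, against 0.385% lower and 0.369% higher over all tested Igh pairs. At an unadjusted p under 0.05, 156 pairs (29.3%) were lower and 1 was higher, against 12.2% lower and 8.74% higher over all tested Igh pairs. DESeq2 called 86 lower (16.2%) and 1 higher, against 7.39% lower and 6.25% higher.

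The median fold was alike for both kinds of partner, while the shares of pairs called or without overlap were higher within the proximal V region. Within the proximal V region, 83 of 86 tested pairs were below 0 with a median of -1.27, and 3 were called lower. Among proximal with middle V pairs, 395 of 446 were below 0 with a median of -1.30, and 2 were called lower. The called shares were 3.49% and 0.448%, against 0.385% over all tested Igh pairs. Both resting B libraries lay below both MEF libraries in 84.9% and 71.3%, against 35.9% over all tested Igh pairs. The difference between the 2 kinds of pair was not tested. With any 1 of the 2 resting B or the 2 MEF libraries left out, 0 pairs were called lower, as held for all Igh pairs. Without pro-B replicate 1 or replicate 2 the counts were 186 (35.8%) and 193 (36.8%), and those over all tested Igh pairs grew with them, to 14.3% and 14.7% lower.

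Resting B cells over pro-B cells gave a similar median of -1.24, against 0.01 over all Igh pairs. This comparison shares the resting B libraries with the one before, so the 2 are not independent of each other. Of the 532 tested pairs, 432 were below 0, and 288 (54.1%) had both resting B libraries below both pro-B libraries, where the share over all tested Igh pairs was 29%. Both lay above in 36 pairs (6.77%), against 33% of all tested Igh pairs. Calls numbered 52 lower (9.77%) and 0 higher, against 5.16% lower and 2.74% higher over all Igh pairs. Of the 52, 15 were within the proximal V region and 37 reached into the middle V region. At an unadjusted p under 0.05, 177 pairs (33.3%) were lower and 3 higher, against 16.8% lower and 12.7% higher over all tested Igh pairs. DESeq2 called 138 lower (25.9%) and 3 higher, against 13.4% lower and 10.9% higher. With 1 resting B or 1 MEF library left out 0 pairs were called lower, here and over all Igh pairs. Leaving out pro-B replicate 1 gave 186 lower (35.8%) and 76 higher (14.6%), against 18.8% and 28.3% over all tested Igh pairs. Leaving out pro-B replicate 2 gave 190 lower (36.3%) and 7 higher (1.34%), against 17.3% and 15.2%. With only the 4 resting B and pro-B libraries in the fit, 0 pairs were called lower, as for all Igh pairs.

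Pro-B cells did not differ detectably from MEF in single pairs. edgeR called 0 of the 532 pairs in either direction, as it did for all Igh pairs (0%). At an unadjusted p under 0.05, 11 pairs (2.07%) were higher and 6 (1.13%) lower, against 4.99% higher and 4.17% lower over all tested Igh pairs. DESeq2 called 1 higher and 1 lower, against 1.34% higher and 1.13% lower. The median fold was 0.03, equal at this precision to that over all Igh pairs (0.03). Both pro-B libraries lay above both MEF libraries in 101 pairs (19.0%) and below them in 105 (19.7%), where 19.3% and 22.8% of all tested Igh pairs did. Leaving out pro-B replicate 1 gave 29 called higher (5.58%) and 104 lower (20%), against 9.55% and 22.7% over all tested Igh pairs. Leaving out pro-B replicate 2 gave 1 and 0, against 1.26% and 0.558%, so the calls between pro-B cells and MEF depended on a single library.

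**Figure D2:**
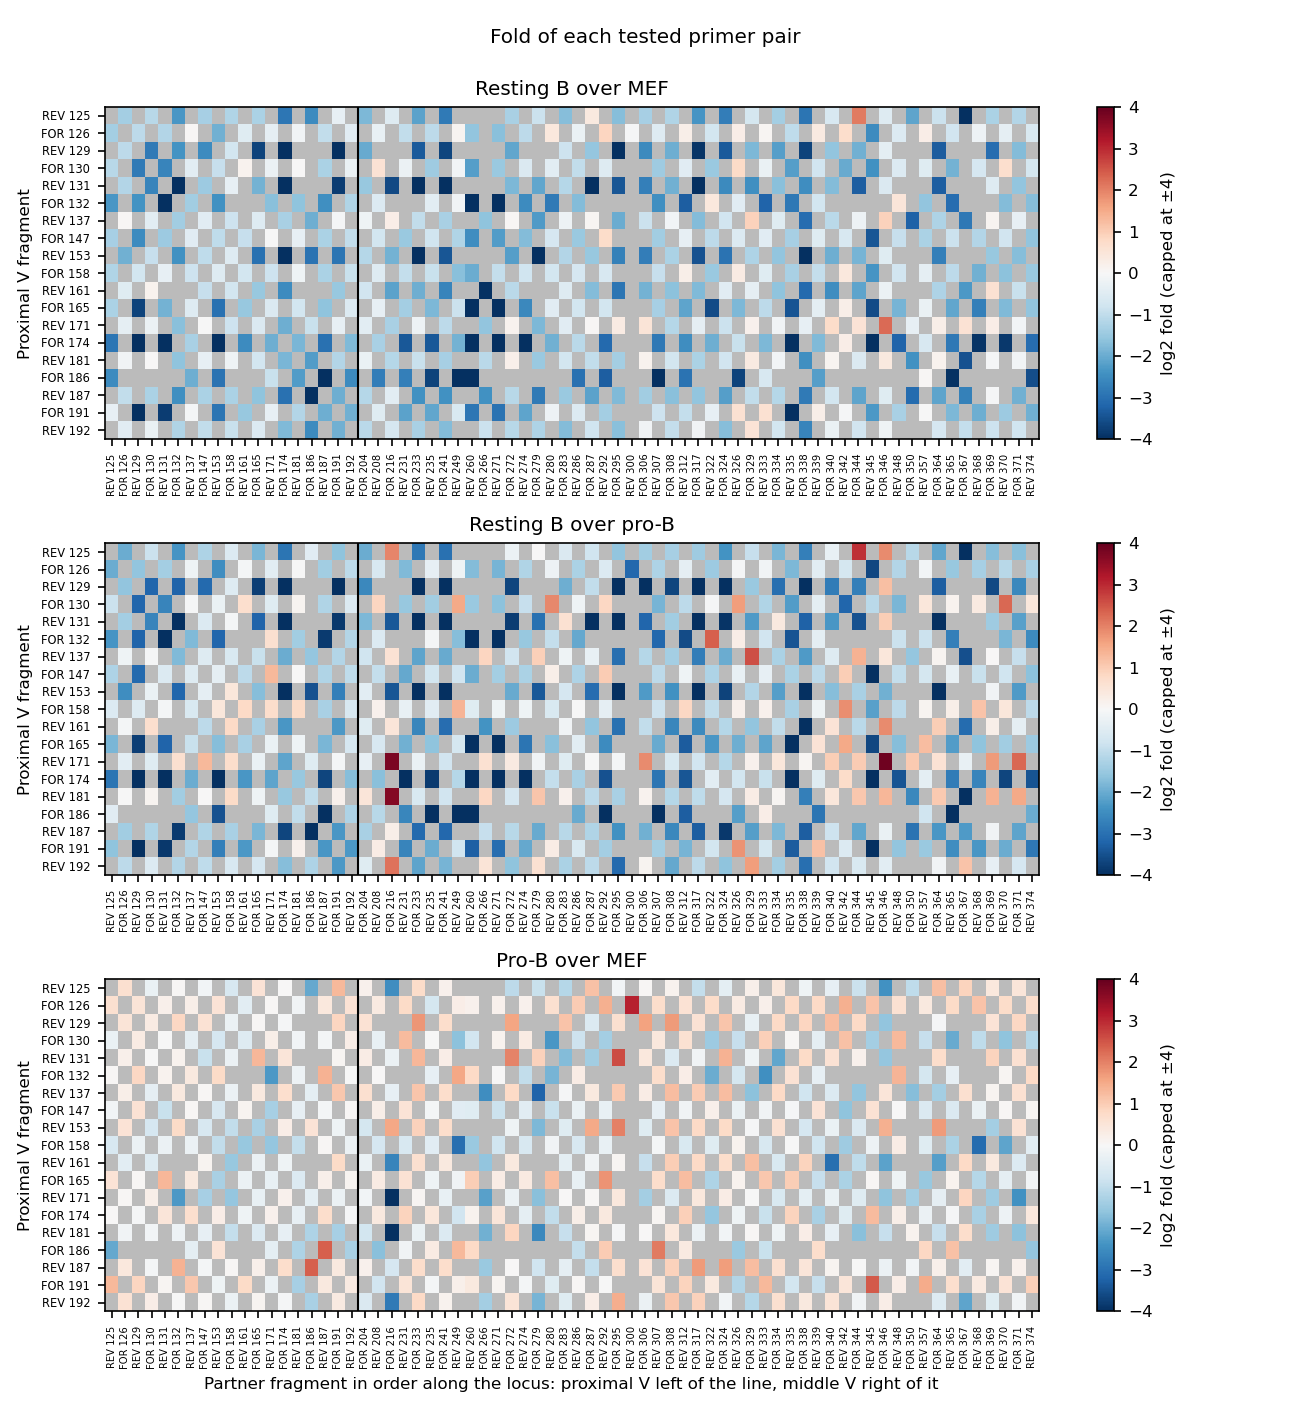
Log2 fold of each tested primer pair for resting B over MEF, resting B over pro-B and pro-B over MEF, with the 19 proximal V fragments down the page and the 19 proximal and 51 middle V fragments across, in order along the locus; grey cells have no tested pair and colours stop at 4 in either direction. In the upper panels 478 and 432 of the 532 pairs are below 0, with whole rows (FOR 174, REV 129) darker than others, and in the lowest panel 273 are above 0 and 259 below.

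The resting B fold was below that of all Igh pairs at every separation. Pairs less than 20 kb apart had a median log2 fold of -1.94 over MEF, and those 20 to 50 kb apart -1.13. Beyond that the medians were -1.15 at 50 to 100 kb, -1.29 at 100 to 200 kb, -1.45 at 200 to 400 kb and -1.24 at 400 to 900 kb. All Igh pairs of the same separations had medians between -0.86 (under 20 kb) and -0.15 (20 to 50 kb), above the pairs described here in each class. Over pro-B cells the resting B medians were -2.10, -0.68, -1.03, -1.25, -1.23 and -1.25 in the same order, and those of all Igh pairs lay between -0.52 and 0.17.

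The levels themselves fell steeply with separation in every library. At 200 to 400 kb the median pair had 2.58 and 2.34 CPM in resting B libraries, 9.96 and 8.24 CPM in pro-B libraries, and 7.89 and 6.97 CPM in MEF libraries. At 400 to 900 kb it had 1.74 and 1.71 CPM in resting B libraries, 4.79 and 3.76 CPM in pro-B libraries, and 4.24 and 4.49 CPM in MEF libraries. In both classes the resting B libraries lay below the 4 others. At 50 to 100 kb the resting B libraries, at 30.1 and 30.6 CPM, lay between the pro-B libraries, at 42.7 and 22.9 CPM, and below the MEF libraries, at 62.5 and 63.8 CPM.

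**Figure D3:**
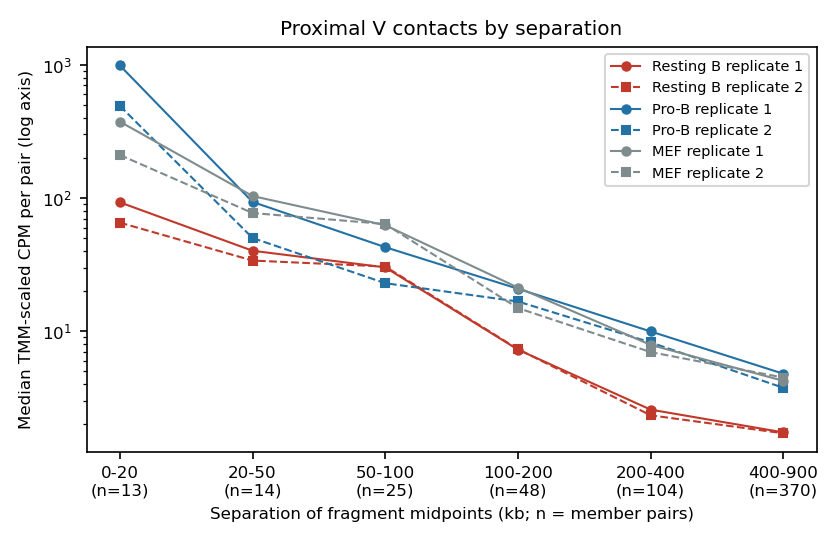
Median CPM per primer pair (log axis) in 6 classes of separation, 1 line per library, over all 574 pairs. The resting B lines run below the 4 others beyond 100 kb, and the 2 pro-B libraries part below 20 kb, where they had medians of 990 and 492 CPM.

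Pairs of neighbouring fragments were among those with large folds. The region has 6 pairs whose fragments adjoin on the chromosome, so that a read can also come from a HindIII site that was not cut or was closed again. These 6 pairs held 18.5% and 19.0% of the reads within the proximal V region in resting B libraries, 41.6% and 40.8% in pro-B libraries, and 41.5% and 33.6% in MEF libraries. The share was thus lower in both resting B libraries. Without the adjoining pairs, an alternative chosen after seeing the data, the sum within the proximal V region was -0.79 for resting B over MEF (adjusted p = 0.107) and -0.98 for resting B over pro-B cells (adjusted p = 0.0628), so both calls ended. Over pairs more than 50 kb apart, which leaves out these pairs and all other near ones, the sum within the proximal V region was -1.33 for resting B over MEF (adjusted p = 0.0314) and -1.51 for resting B over pro-B cells (adjusted p = 0.0344). By mean CPM, FOR 147 with REV 129 and FOR 126 with REV 153 were the most read of these pairs, with folds of -2.53 and -1.93 over MEF. They weigh heavily in this sum, which was not run without them.

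The adjoining pair FOR 186 with REV 187 (chr12:115060699-115061882 and chr12:115061883-115074065, mm9) had 139 and 109 reads in resting B libraries, 34330 and 16447 in pro-B libraries, and 5099 and 5767 in MEF libraries. The groups did not overlap, with pro-B cells highest and resting B cells lowest. The log2 fold was -5.55 ± 0.64 for resting B over MEF (adjusted p = 0.0383) and -7.93 ± 0.72 for resting B over pro-B cells (adjusted p = 0.0189). For pro-B cells over MEF it was 2.39 ± 0.56 and did not pass (adjusted p = 0.375). The neighbours FOR 132 and REV 131 (chr12:114842495-114847397 and chr12:114840678-114842494, mm9) had 99 and 99 reads in resting B libraries, 6649 and 2928 in pro-B libraries, and 6018 and 2865 in MEF libraries. Here pro-B and MEF libraries overlapped, and resting B cells were lower, at -5.71 ± 0.85 over MEF (adjusted p = 0.0440) and -5.85 ± 0.86 over pro-B cells (adjusted p = 0.0214). The other 4 adjoining pairs had folds of -2.82 to -1.36 for resting B over MEF, none past the threshold, and of -3.16 to -1.99 over pro-B cells, of which FOR 191 with REV 192 did not pass (adjusted p = 0.0575).

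Far pairs were called as well in the fit of all pairs. With only pairs over 50 kb in the fit, 0 of 505 were called lower over MEF, against 0% of all Igh pairs. Over pro-B cells 32 were called lower in that fit (6.34%), against 3.36% of all Igh pairs. FOR 174 with REV 260, 314 kb apart (chr12:115011448-115018809 and chr12:115327864-115330485, mm9), had 1 and 2 reads in resting B libraries, 255 and 296 in pro-B libraries, and 244 and 281 in MEF libraries. With 3 reads in resting B cells, the ratio of scaled reads was 0.00559 to MEF (95% counting interval 0.00115 to 0.0164, exact binomial) and 0.00492 to pro-B cells (0.00101 to 0.0144). The fitted log2 fold, which depends on the prior count at so few reads, was -7.41 ± 0.86 over MEF (adjusted p = 0.0383) and -7.55 ± 0.87 over pro-B cells (adjusted p = 0.0190). Pro-B cells over MEF gave 0.15 ± 0.61 (adjusted p = 0.943). The other 2 pairs called lower over MEF share a fragment with it: FOR 165 with REV 260 at -4.52 ± 0.64 and FOR 174 with REV 153 at -4.82 ± 0.68 (adjusted p = 0.0440 for both). They had 19 and 10, and 10 and 11 reads in resting B libraries, 364 and 869, and 335 and 308 in pro-B libraries, and 249 and 399, and 195 and 414 in MEF libraries. Relative to pro-B cells, 3 more far pairs were named by their rank. FOR 126 with REV 345, 800 kb apart, had 105 and 116 reads in resting B libraries, 793 and 1803 in pro-B libraries, and 498 and 729 in MEF libraries. The resting B libraries were lowest, at -3.64 ± 0.49 over pro-B cells (adjusted p = 0.0213), and over MEF the fold was -2.51 ± 0.47 (adjusted p = 0.0584). FOR 233 with REV 129, 376 kb apart, had 26 and 17 reads in resting B libraries, 294 and 1146 in pro-B libraries, and 168 and 261 in MEF libraries, with -5.11 ± 0.75 for resting B over pro-B cells (adjusted p = 0.0214). FOR 165 with REV 335, 631 kb apart, had 12 and 15 reads in resting B libraries, 182 and 369 in pro-B libraries, and 88 and 221 in MEF libraries, with -4.43 ± 0.79 over pro-B cells (adjusted p = 0.0298). In each of these far pairs resting B cells lay below all 4 other libraries.

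No pair passed in the other direction; the pairs named here had the lowest p among the higher ones without overlap of the libraries. FOR 346 with REV 171, 628 kb apart, had 521 and 353 reads in resting B libraries, 7 and 51 in pro-B libraries, and 75 and 96 in MEF libraries. Resting B cells were the highest group, at 3.88 ± 0.94 over pro-B cells (adjusted p = 0.0505) and 2.27 ± 0.87 over MEF (adjusted p = 0.201), neither past the threshold. FOR 344 with REV 125, 806 kb apart, had 152 and 116 reads in resting B libraries, 5 and 29 in pro-B libraries, and 24 and 38 in MEF libraries. Its folds were 2.93 ± 1.03 over pro-B cells (adjusted p = 0.116) and 2.07 ± 1.00 over MEF (adjusted p = 0.293). FOR 216 with REV 181, 115 kb apart, was read least in pro-B cells, with 72 and 44 reads in resting B libraries, 7 and 0 in pro-B libraries, and 101 and 146 in MEF libraries. Neither its 3.68 ± 1.47 for resting B over pro-B cells (adjusted p = 0.150) nor that of -4.83 ± 1.54 for pro-B cells over MEF (adjusted p = 0.436) passed. FOR 126 with REV 292, 605 kb apart, had 6410 and 6757 reads in resting B libraries, 3516 and 15449 in pro-B libraries, and 3351 and 3403 in MEF libraries. Resting B cells were above MEF and between the pro-B libraries, and the fold over MEF was 0.86 ± 0.58 (adjusted p = 0.441).

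Between pro-B cells and MEF, the pairs with the lowest p also remained short of the threshold. After FOR 186 with REV 187, FOR 233 with REV 129 was at 1.76 ± 0.64 (adjusted p = 0.491). FOR 308 with REV 137, 641 kb apart, had 526 and 694 reads in pro-B libraries and 214 and 351 in MEF libraries, with a fold of 1.23 ± 0.45 (adjusted p = 0.490). In the other direction FOR 158 with REV 161, 12.6 kb apart, had 873 and 953 reads in pro-B libraries and 2395 and 3243 in MEF libraries, with -1.52 ± 0.38 (adjusted p = 0.401). FOR 147 with REV 131 had -0.90 ± 0.39 (adjusted p = 0.549).

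**Figure D4:**
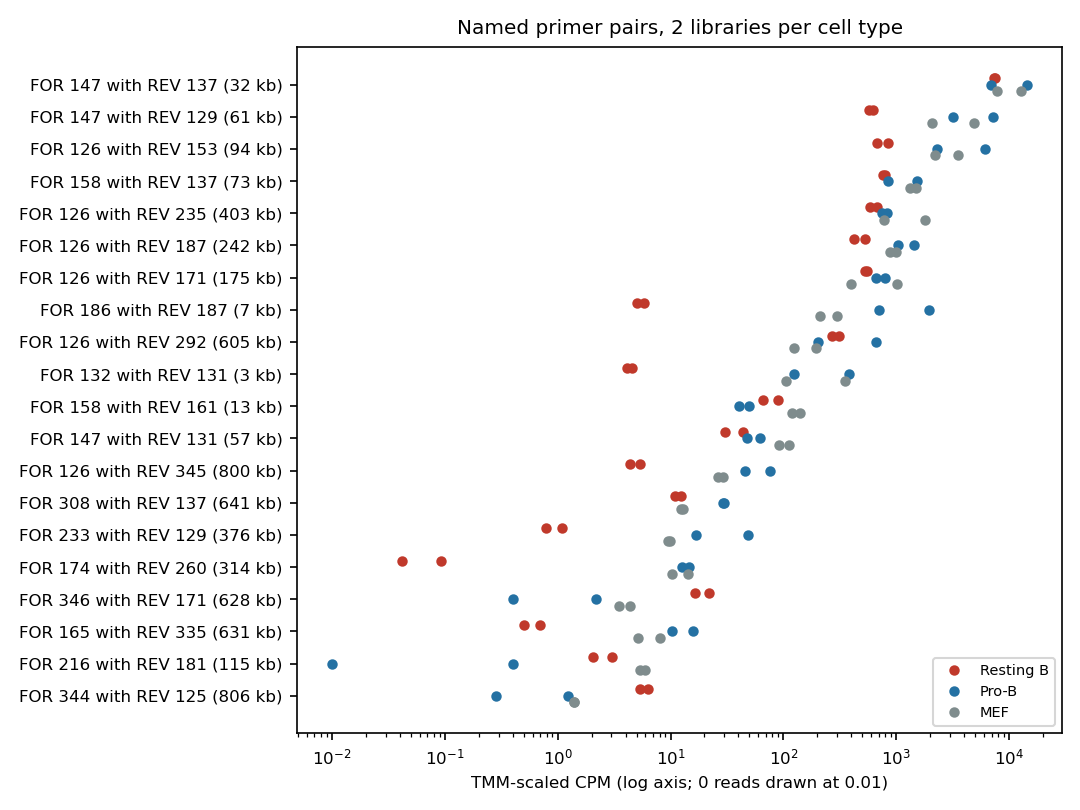
CPM of the TMM-scaled library (log axis) for each named primer pair, with 2 libraries per cell type as points and the separation in kb beside the name; a count of 0 is drawn at 0.01. Resting B points lie left of the others in FOR 186 with REV 187, FOR 132 with REV 131 and FOR 174 with REV 260, and right of them in FOR 346 with REV 171 and FOR 344 with REV 125, which did not pass the test.

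The most read contacts of the region were present in all 3 cell types. FOR 147 with REV 137, 32.5 kb apart (chr12:114897147-114900764 and chr12:114864513-114868474, mm9), was the strongest pair within the proximal V region. It had 7577 and 7355 CPM in resting B libraries, 14478 and 6968 CPM in pro-B libraries, and 12854 and 7738 CPM in MEF libraries. The pro-B libraries lay on both sides of the resting B libraries, and the fold was -0.46 ± 0.53 for resting B over MEF (adjusted p = 0.657) and -0.52 ± 0.53 for resting B over pro-B cells (adjusted p = 0.543). The pair made up 37.9% and 37.0% of the reads within the proximal V region in resting B libraries, 20.2% and 18.6% in pro-B libraries, and 22.6% and 22.5% in MEF libraries. Without it, the regional sum gave -1.50 for resting B over MEF (adjusted p = 0.0120) and -1.81 for resting B over pro-B cells (adjusted p = 0.00842).

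Among pairs more than 50 kb apart, FOR 147 with REV 129, 61.3 kb apart, had the highest mean CPM over the 6 libraries, although FOR 158 with REV 137 and FOR 126 with REV 153 had more reads than it in both resting B libraries. It had 14989 and 12335 reads in resting B libraries, 127036 and 74415 in pro-B libraries, and 82895 and 56634 in MEF libraries. Resting B cells were lowest, at -3.12 ± 0.63 over pro-B cells (adjusted p = 0.0353) and -2.53 ± 0.61 over MEF, which did not pass (adjusted p = 0.0891). FOR 126 with REV 153, 93.6 kb apart, had 16030 and 18158 reads in resting B libraries, 107984 and 54555 in pro-B libraries, and 60466 and 60741 in MEF libraries. Its folds were -2.49 ± 0.58 over pro-B cells (adjusted p = 0.0470) and -1.93 ± 0.57 over MEF (adjusted p = 0.128). FOR 158 with REV 137, 72.5 kb apart, had 19046 and 16579 reads in resting B libraries, 26684 and 19935 in pro-B libraries, and 25416 and 36037 in MEF libraries, and passed in no comparison. The same holds for FOR 126 with REV 235, REV 187 and REV 171, which follow in the order of mean CPM and whose folds for resting B over MEF were -1.04, -0.99 and -0.37.

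Some of the most read contacts were above what their separation and primers would give. The expected count came from a quasi-Poisson model of each library, with a smooth curve over log separation and an effect for each primer, and a pair counted as above it when its standardised residual was at least 2 in both libraries of a cell type. Residuals are scaled by a spread fitted to each library, so they do not compare between cell types. A pair with a low expected count also needs a far larger excess to reach 2. FOR 344 with REV 125 had 152 and 116 reads in resting B libraries against 9.98 and 7.35 expected, with residuals of 0.91 and 0.72. FOR 147 with REV 129 met this in all 3 cell types, with lower residuals of the 2 libraries of 7.01 in resting B cells, 8.75 in pro-B cells and 4.62 in MEF. FOR 126 with REV 153 did so too, with lower residuals of 5.39 in resting B cells, 4.83 in pro-B cells and 3.52 in MEF. FOR 158 with REV 137 met it in resting B cells (3.15) and pro-B cells (2.02), and had 1.01 in MEF, a difference that was not tested. Its excess was not smaller in MEF, with 25416 and 36037 reads against 6369 and 9940 expected. Resting B libraries had 19046 and 16579 reads against 6517 and 4494 expected. FOR 126 with REV 235 met it in resting B cells (3.21, against 0.78 for pro-B and 1.11 for MEF), and so did FOR 126 with REV 187 (2.38, against 1.25 for pro-B and 0.66 for MEF). Both pairs also had more reads than expected in every pro-B and MEF library. FOR 126 with REV 235 had 30668 and 21524 reads in MEF libraries against 2345 and 6581 expected. In resting B libraries it had 13944 and 14446 against 3964 and 3310. In all, 5 of the 547 pairs over 50 kb apart met it in resting B cells (0.914%), 3 in pro-B cells (0.548%) and 2 in MEF (0.366%), where 0.905%, 0.374% and 0.208% of all Igh pairs over 50 kb did. In resting B cells the share was thus close to that of all Igh pairs.

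Summed by fragment, reads were lower in resting B cells for many proximal V fragments and for part of the middle V fragments. Each fragment's reads were summed with the proximal V region and, for proximal fragments, also with the middle V region, which gave 89 sums. Every pair entered the sums of both its fragments, so the 89 sums are not independent of each other. For resting B over MEF, 38 sums were called lower and 0 higher (42.7% lower), where 12.6% of all fragment sums in the locus were called lower and 19.2% higher. Over pro-B cells, 42 were called lower and 0 higher (47.2% lower), against 17.8% lower and 18.2% higher over all sums. For pro-B cells over MEF 0 of 89 were called, against 1.38% higher and 0.0446% lower over all sums, and DESeq2 called 2 higher and 1 lower, against 9.15% higher and 2.41% lower over all sums.

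Sums of the 19 proximal fragments with each other ranged from -4.21 to -0.39 for resting B over MEF, and 11 of the 19 were called lower. With the middle V region they ranged from -2.78 to -0.13, and 12 of 19 were called. The 51 middle V fragments ranged from -2.59 to 0.68 in their reads with the proximal V region, and 15 were called lower. Relative to pro-B cells, 11 and 12 of the 19 proximal fragments and 19 of the 51 middle V fragments were called lower. The calls depended on single libraries. Without MEF replicate 1, resting B replicate 1 or resting B replicate 2, the calls over MEF ended. Over pro-B cells they ended without resting B replicate 2. Fewer remained over MEF without MEF replicate 2 and over pro-B cells without resting B replicate 1. Calls over all fragment sums ended or fell in the same fits, each of which left a group with 1 library.

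The middle V fragment REV 345 (chr12:115623606-115628290, mm9) had the lowest p. Its reads with the proximal V region numbered 176 and 156 in resting B libraries, 1284 and 2106 in pro-B libraries, and 779 and 1168 in MEF libraries. The 3 cell types did not overlap, and resting B cells were lower, at -2.59 ± 0.30 over MEF (adjusted p = 0.00429) and -3.48 ± 0.31 over pro-B cells (adjusted p = 0.00275). REV 260 (chr12:115327864-115330485, mm9), also in the middle V region, had 98.6 and 93.3 CPM with the proximal V region in resting B libraries, 355 and 367 CPM in pro-B libraries, and 339 and 384 CPM in MEF libraries. It was lower in resting B cells, at -1.91 ± 0.27 over MEF (adjusted p = 0.00491), and pro-B cells over MEF gave 0.00 ± 0.26. FOR 186 had 16.4 and 15.5 CPM with the other proximal fragments in resting B libraries, 1988 and 711 CPM in pro-B libraries, and 341 and 252 CPM in MEF libraries, most of them with its neighbour REV 187. Among proximal fragments' reads with the middle V region, REV 129 gave -2.23 ± 0.30 over MEF (adjusted p = 0.00483) and -3.09 ± 0.31 over pro-B cells (adjusted p = 0.00275), and REV 131 -1.85 ± 0.26 over MEF (adjusted p = 0.00530) and -2.20 ± 0.27 over pro-B cells (adjusted p = 0.00321).

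**Figure D5:**
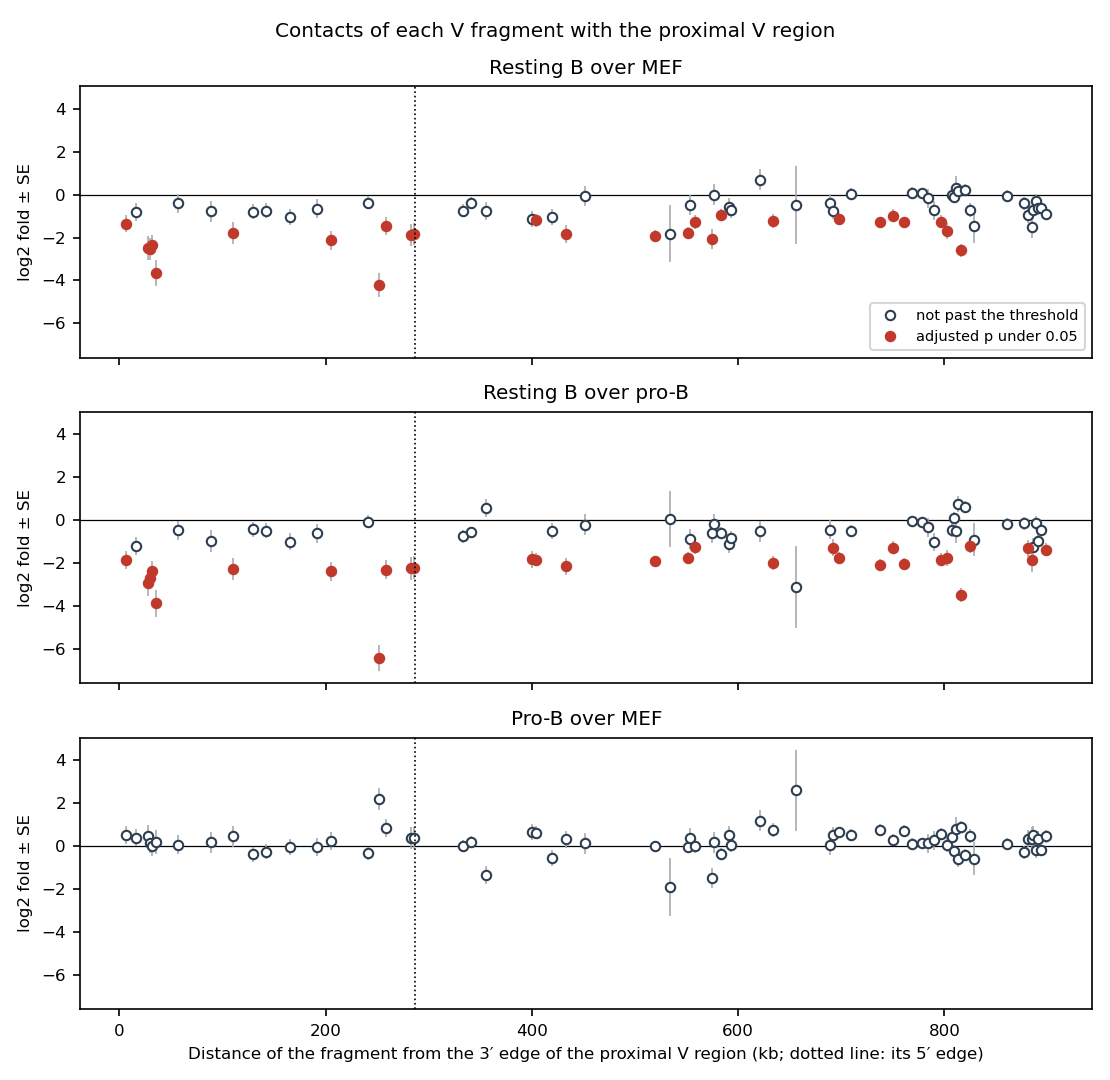
Log2 fold ± SE of each V fragment's reads with the proximal V region, against its distance in kb from the edge of the proximal V region that faces the D segments, for the 3 comparisons; filled points passed an adjusted p of 0.05 and the dotted line is the other edge of the region. In the upper panels 26 and 30 filled points, all below 0, lie on both sides of the dotted line, and the lowest panel has none.

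Proximal fragments differed from each other. The median fold of a fragment's tested pairs for resting B over MEF was lowest in FOR 186 (-2.95) and FOR 174 (-2.85), and highest in REV 171 (-0.33) and FOR 126 (-0.48). All 19 medians were below 0. Over pro-B cells, REV 129 (-3.26) and REV 131 (-3.19) were lowest, and 2 medians were above 0, those of REV 171 (0.02) and REV 181 (0.04). FOR 174 and REV 187 held 11 called pairs each of the 52, which share these fragments and are therefore not separate events.

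A fragment's fold with the proximal and middle V fragments went with its fold in its other Igh pairs, which include those with the distal V regions. Over the 19 fragments, the median of the pairs described here and that of the fragment's other tested Igh pairs correlated with Spearman's rho of 0.91 and Pearson's r of 0.90 for resting B over MEF, and with 0.84 and 0.83 for resting B over pro-B cells. Both medians share the fragment's primer and libraries, so this is a description and no test. FOR 174 had a median of -2.85 over MEF with the proximal and middle V fragments and -1.46 with the rest of the locus, and REV 171 had -0.33 and 0.15. In all 19 fragments the median over MEF was lower for the pairs with proximal and middle V fragments than for the other Igh pairs, and the same count was 19 of 19 over pro-B cells and 8 of 19 for pro-B cells over MEF. The other pairs were not alike. Tested pairs of the proximal V region had a median over MEF of -0.99 with near distal V and -1.25 with far distal V. It was -0.92 with the stretch between the V and D segments and -0.29 with the region of the D and J segments.

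Reads with the gene desert on chromosome 5 show how often a fragment was recovered with unlinked DNA, relative to the other Igh fragments. These sums had their own TMM scaling over the 224 Igh fragments, so a change that most fragments share would not show in the folds. For resting B over MEF, the desert folds of the 19 proximal fragments had a median of -0.13, and 12 were below 0. Only REV 129 was called lower, at -3.85 ± 0.74 (adjusted p = 0.0247), where 0.446% of all Igh fragments were called lower. It had 348 and 409 desert reads in resting B libraries, 1056 and 2786 in pro-B libraries, and 3705 and 693 in MEF libraries. Over pro-B cells the median was -0.14, and REV 129 was again the only proximal fragment called lower (-3.46 ± 0.73, adjusted p = 0.00838), where 6.25% of all Igh fragments were called lower and 2.68% higher. Of the 51 middle V fragments, 0 were called lower over MEF and 3 over pro-B cells (REV 335, FOR 338 and REV 370). FOR 174, REV 153 and FOR 186 had desert folds of -1.25, -1.28 and -1.04 over MEF, none past the threshold, and FOR 186 had 5 to 26 desert reads per library, too few to tell.

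Resting B alleles lack the DNA that V(D)J joining deleted, and the part of that deletion in these falls was not tested. Desert folds are relative to the other Igh fragments and cannot measure a loss that most of them share. With the 4 called fragments left out, an alternative chosen after seeing the data, the sum within the proximal V region was -1.02 for resting B over MEF (adjusted p = 0.0611) and -1.23 over pro-B cells (adjusted p = 0.0389). For proximal with middle V it was -0.66 over MEF (adjusted p = 0.0422) and -0.82 over pro-B cells (adjusted p = 0.0301). When each fragment's desert fold was taken out of its pairs, also chosen after seeing the data, the sum within the proximal V region was -0.51 over MEF (adjusted p = 0.0458) and -0.67 over pro-B cells (adjusted p = 0.0486). For proximal with middle V the same step gave -0.50 (adjusted p = 0.0731) and -0.55 (adjusted p = 0.135).

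The fall was not limited to the proximal V region. Resting B cells were also lower in contacts within the middle V region, at -1.36 ± 0.47 over MEF (adjusted p = 0.0403) and -1.71 ± 0.47 over pro-B cells (adjusted p = 0.0271). Contacts within the near distal V region gave -1.43 ± 0.49 over MEF (adjusted p = 0.0403) and -1.54 ± 0.49 over pro-B cells (adjusted p = 0.0372), and those within the far distal V region -1.41 ± 0.48 (adjusted p = 0.0403) and -1.59 ± 0.48 (adjusted p = 0.0306). The sum of the proximal V region with the D and J region went the other way, at 0.50 ± 0.23 over MEF (adjusted p = 0.105) and 0.50 ± 0.23 over pro-B cells (adjusted p = 0.0916). The median tested pair of this kind was at -0.29 over MEF and 0.44 over pro-B cells. Its most read pair, FOR 126 with REV 81, held 22.4% and 27.2% of these reads in resting B libraries. The pair held 15.1% and 13.7% in pro-B libraries, and 10.9% and 11.3% in MEF libraries. Sums of the proximal V region with the near distal V region, the far distal V region and the stretch between the V and D segments were below 0. None of these sums was called in either comparison. The log2 ratio of reads within the proximal V region to reads within the middle V region was -1.22 and -1.19 in resting B libraries, -1.39 and -1.60 in pro-B libraries, and -1.34 and -1.43 in MEF libraries, highest in resting B cells. Over the far distal V region the log2 ratio was -0.13 and -0.02 in resting B libraries, -0.32 and 0.04 in pro-B libraries, and -0.30 and -0.27 in MEF libraries, so resting B and pro-B libraries overlapped. The log2 ratio of reads within the proximal V region to reads of proximal with middle V was 1.85 and 1.71 in resting B libraries, 2.89 and 1.72 in pro-B libraries, and 2.52 and 1.97 in MEF libraries, lower in resting B cells than in MEF and overlapping with pro-B cells. In an exact two-sided permutation test no ratio could go below p = 0.333, the smallest that 2 libraries against 2 allow. The ratios ran in different directions and were chosen after their values were seen.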

How the data were processed

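Igh and gene desert contacts were measured by 5C in 6 libraries. Per the file headers, each deposited value is an uncorrected count of read pairs for 1 primer pair. The submitters' processing notes name Novoalign, with no version, and mm9. There are no molecular identifiers, so limits cover counting error only, and an unlisted pair was taken as 0. A pair was tested if 2 or more libraries had 10 reads or more. edgeR 4.0.16 (R 4.3.3) scaled the libraries by TMM on 12160 cis pairs and fitted all 6 by quasi-likelihood with a term for cell type. Desert sums were scaled by TMM over the desert sums themselves. Benjamini-Hochberg adjustment ran over 11940 Igh pairs, 2240 fragment sums, 224 desert sums or 55 region sums (threshold 0.05). DESeq2 1.42.0 was an alternative, and limma 3.58.1 was used where each pair counted once. The code was tested on simulated data. CPM is counts per 1000000 reads of the TMM-scaled library. Replicate spread may be partly technical.

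The members and lists were chosen with earlier results of these data known. Named pairs were, per comparison and direction, up to 6 called pairs without overlap of the libraries, by p and with no fragment repeated, filled to 3 from those not called; the 6 pairs over 50 kb with most reads; up to 4 pairs per cell type above expectation; the most read pair of each sum; and up to 4 fragment sums per direction. The spline had 4 degrees of freedom.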

Additional observations from a re-analysis of the deposited data

How the results depend on the processing

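Direction was kept below 0 for both sums of resting B cells over MEF and over pro-B cells in every alternative run, with calls that ended as follows. For resting B over MEF, the sum of proximal with middle V was -0.44 with total cis reads as library size (adjusted p = 0.486), -0.20 with gene desert reads (0.833), -0.69 with the replicate number as a block (0.0722), -0.38 with the distance offset (0.206) and -0.50 with the desert offset (0.0731). Within the proximal V region it was -0.63 with desert reads, -0.68 with the distance offset, -1.02 without the fragments called lower to the desert and -0.79 without adjoining pairs (0.107). For resting B over pro-B cells, proximal with middle V gave -0.61 with total reads (adjusted p = 0.417), -0.64 with desert reads (0.512), -0.80 with only the 4 libraries compared (0.0865), -0.43 with the distance offset (0.189) and -0.55 with the desert offset, and within the proximal V region the distance offset gave -0.90 and leaving out adjoining pairs -0.98 (0.0628). Leaving out each library in turn, the folds ranged from -1.51 to -0.79 and from -0.77 to -0.60 over MEF, and from -1.85 to -0.93 and from -0.99 to -0.75 over pro-B cells. Pro-B over MEF reversed to -0.18 within the proximal V region and to -0.55 with middle V where each pair was counted once (limma), and ranged from -0.28 to 0.66 within the proximal V region over single libraries left out.

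Counts of calls moved together with those over all features, whose share stands in parentheses after each. Pairs called lower over MEF were 5 (0.385%), and 9 with total reads (0.745%), 86 with DESeq2 (7.39%), 184 with only the 4 libraries (14.5%), and 0 with the block (0.0503%), over 50 kb (0%) or with the desert offset (0%), with 0 to 193 over single libraries left out (0% to 14.7%). Higher were 1 with DESeq2 (6.25%) and 2 with 4 libraries (14%), with 0 to 2 (0% to 13.8%). Over pro-B cells 52 were lower (5.16%), and 28 with total reads (3.4%), 24 with desert reads (2.92%), 138 with DESeq2 (13.4%), 0 with 4 libraries (0%), 18 with the block (1.71%), 30 with the distance offset (3.91%), 32 over 50 kb (3.36%) and 1 with the desert offset (0.00838%), with 0 to 190 (0% to 18.8%). Higher were 3 with DESeq2 (10.9%) and 1 each with DESeq2's size factors (2.76%), no filter (2.79%), at least 50 reads (3.73%) and the distance offset (2.76%), with 0 to 76 (0% to 28.3%). For pro-B over MEF DESeq2 gave 1 each way (1.34% higher, 1.13% lower), with 0 to 29 higher (0% to 9.55%) and 0 to 104 lower (0% to 22.7%). Fragment sums called lower over MEF were 38 (12.6%), and 20 with total reads (7.28%), 8 with desert reads (3.66%), 61 with 4 libraries (23.7%), 25 with the distance offset (10.8%) and 0 with the desert offset (0%), with 0 to 61 (0% to 23.9%); 1 was higher with 4 libraries (35.2%), with 0 to 1 (0% to 36.1%). Over pro-B cells 42 were lower (17.8%), and 14 with desert reads (6.29%) and 1 with the desert offset (0.0446%), with 0 to 55 (0% to 24.7%); 2 were higher with the distance offset (17.4%), with 0 to 2 (0% to 33.8%). For pro-B over MEF 2 were higher with total reads (2.32%) or DESeq2 (9.15%) and 1 with the desert offset (0.223%), with 0 to 14 (0% to 19.6%), and 1 was lower with DESeq2 (2.41%), with 0 to 4 (0% to 7.2%).

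The median fold over MEF was -1.06 with total reads, -0.82 with desert reads, -1.22 with DESeq2's size factors, -1.23 with DESeq2 or at least 50 reads, -1.02 with the distance offset, -0.98 with the desert offset, -1.19 without the fragments lower to the desert and -1.36 without FOR 126 (-1.35 to -1.19). Over pro-B cells it was -0.92, -0.89, -1.12 (4 libraries), -1.15 (block; also over 50 kb), -0.81 (distance), -1.04 (desert offset) and -1.12 (without fragments lower to the desert), with -1.37 to -0.89 over single libraries left out. For pro-B over MEF it was -0.037 with total reads, -0.039 without FOR 126, 0.19 (desert reads), 0.095 (4 libraries), -0.025 (block), -0.12 (distance), -0.087 (over 50 kb) and 0.087 (desert offset), with -0.25 to 0.058. Total reads moved the median of all Igh pairs for resting B over MEF to 0.21 and desert reads to 0.45, and over pro-B cells to 0.28 and 0.29, so the folds above stand relative to those. The share of Igh reads held by those of the 574 pairs that are over 50 kb apart was 1.31% in resting B cells, 2.55% in pro-B cells and 2.20% in MEF. FOR 216 with REV 181, which was not called, reversed to -0.21 for resting B over pro-B cells with the desert offset. Where a call ended, the cause was not tested. The desert offset, the 4 fragments left out, FOR 126 left out and adjoining pairs left out were chosen after seeing the data.

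Replicate numbers did not pair the libraries: deviations of same-numbered libraries correlated at 0.00 for resting B cells and MEF, 0.08 for resting B and pro-B cells and -0.03 for pro-B cells and MEF. With 2 libraries per cell type, single pairs need large differences to be called, and thinly read pairs limit what far contacts can show.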
